A study of Mus musculus with 79 samples.

Results

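The genes described here are 10 lung epithelial genes: Sftpa1, Sftpb, Sftpc and Sftpd, which encode the surfactant proteins; Abca3, Lamp3 and Napsa, which serve the lamellar bodies; Nkx2-1, a transcription factor of lung epithelium; Scgb1a1, the secretoglobin of club cells; and Ager, a receptor abundant on alveolar type 1 cells. They were chosen by name as a set of alveolar and club cell genes, without a measured value in the rule. The choice was made with earlier results of these data known. All 10 were rows of the lung count table, out of 14231 genes listed there and 15198 gene symbols over all tables of the study, and all 10 passed the filter on low counts that left 12150 lung genes for testing.

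Lungs came from 16 wild-type C57BL/6 mice aged 3 months that had lived in cycles of 12 h light and 12 h darkness for 2 weeks. In a sealed, flushed cage they breathed either 6% oxygen in nitrogen or 21% oxygen (synthetic air, the control) for 4 h, either while the lights were on (ZT4-8, where ZT counts hours from lights on) or while they were off (ZT16-20). Each of the 4 groups held 4 mice, 1 library (A to D) per mouse, and a library is whole lung, which mixes all its cell types. The same mice gave kidney and liver, and further livers came from wild-type mice and from Per1,2 double knockout mice in constant darkness.

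Surfactant is the film of phospholipid and protein that lowers surface tension in the alveolus. Alveolar type 2 cells make its lipids and proteins, store them in lamellar bodies, which are organelles related to lysosomes, and secrete them. The thin alveolar type 1 cells carry out gas exchange, and club cells line the small airways and secrete secretoglobins. NKX2-1, together with forkhead and C/EBP factors, is known to drive the surfactant protein genes and Scgb1a1.

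Counts per lung library ran from 1.65 to 4.35 M (median 3.57 M), and the 10 genes took 6.96 to 10.1% of them, so all were well counted. Values are CPM, the counts of a gene per 1000000 counts of its library, with library totals scaled by TMM, which corrects them for composition. CPM are not divided by gene length, so levels are compared within a gene and not between genes. In 3 air libraries, ZT4-8 21% B, ZT4-8 21% C and ZT16-20 21% D, a list of skeletal muscle markers summed to 2418 to 2536 CPM, against 33.6 to 127 CPM in the other 13, and surface markers of oesophagus and trachea summed to 264 to 4097 CPM, against 2.47 to 40.0. In every other list measured the ranges of the 3 and of the other 13 libraries overlapped: summed alveolar type 2 genes, for example, lay at 19920 to 24483 CPM against 17302.5 to 23698 CPM. For several results that rest on these libraries, values without them are given too.

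On mouse build GRCm38 (GENCODE vM21 annotation), Nkx2-1 lies on the minus strand at chr12:56531958-56536908, Sftpb on the plus strand at chr6:72304610-72314371 and Sftpa1 on the plus strand at chr14:41131782-41136452. Sftpd is at chr14:41172214-41185149 and Sftpc at chr14:70520949-70524081, both on the minus strand. The plus-strand genes Abca3 and Ager are at chr17:24351950-24410201 and chr17:34597862-34600936, Napsa is at chr7:44572380-44586862 on the plus strand, and Lamp3 and Scgb1a1 are on the minus strand at chr16:19653378-19706375 and chr19:9083636-9087958. Counts fall on exons, of which the annotated transcripts hold at most 33 (Abca3) and at most 3 (Nkx2-1, Scgb1a1). Antisense genes overlap 3 of the 10: Gm26973 overlaps Nkx2-1, Gm15396 overlaps Napsa, and D330041H03Rik and Gm25618 overlap Abca3. Whether the counting used strand is not stated, so reads of these pairs cannot be told apart; D330041H03Rik itself had 0 to 7 counts per lung library.

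RefSeq promoter sequences (GRCm38.p6) were matched for 6 of the 10 genes. The windows of the regulator Nkx2-1 and of the surfactant protein genes Sftpb and Sftpa1 are shown because the results below set Nkx2-1 beside the genes it is known to drive, and because these 3 were the windows that held the letters TCAAG, the core of the NKX2-1 site. Each is read 5′ to 3′ up to the base before the annotated start, with TCAAG on either strand (CTTGA on the other) in capitals: chr12:56536909-56537158 (minus strand) for Nkx2-1, chr6:72304360-72304609 (plus) for Sftpb and chr14:41131538-41131781 (plus) for Sftpa1.
Nkx2-1: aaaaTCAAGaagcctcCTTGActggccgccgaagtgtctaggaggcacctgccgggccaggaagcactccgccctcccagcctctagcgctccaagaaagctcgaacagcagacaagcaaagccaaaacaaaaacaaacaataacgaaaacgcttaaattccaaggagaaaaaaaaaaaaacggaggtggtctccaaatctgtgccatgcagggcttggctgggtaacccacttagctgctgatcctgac
Sftpb: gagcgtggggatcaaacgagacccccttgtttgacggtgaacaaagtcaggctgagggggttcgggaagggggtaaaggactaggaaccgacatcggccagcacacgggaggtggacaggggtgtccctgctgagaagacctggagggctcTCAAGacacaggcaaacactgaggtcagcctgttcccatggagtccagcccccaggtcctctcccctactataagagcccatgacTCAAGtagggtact
Sftpa1: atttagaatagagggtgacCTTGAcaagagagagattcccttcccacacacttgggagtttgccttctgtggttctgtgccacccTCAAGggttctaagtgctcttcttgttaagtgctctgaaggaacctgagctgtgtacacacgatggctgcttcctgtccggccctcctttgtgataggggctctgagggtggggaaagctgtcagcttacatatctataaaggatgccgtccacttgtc

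Each of the 3 windows held TCAAG 2 times, and those of Abca3, Lamp3 and Ager did not hold it. Of 32851 RefSeq promoters, 35.9% hold TCAAG in the 250 bases before the start, so the letters are common. The windows of Abca3, Lamp3 and Sftpa1 are shorter, at 177, 240 and 244 bases. For these the shares over all promoters come from longer windows. The forkhead letters TGTTTAC were found in the Lamp3 window and TGTTTGC in the Sftpb window (3.17% and 4.30% of all promoters), and ACGTG, the core of the hypoxia response element, in none of the 6 (16.6% of all promoters). A match is a description of the letters and not a measured binding site.

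The main question of the design is how 4 h at 6% oxygen changed these genes. Nkx2-1 fell in the dark phase, and none of the 10 rose or fell in the light phase by the test across all genes (edgeR quasi-likelihood test, Benjamini-Hochberg adjusted p under 0.05). In the same tests 22.6% of the 12150 lung genes were called at ZT4-8 (11.2% higher and 11.4% lower) and 21.1% at ZT16-20 (10.2% higher and 10.9% lower). Among the 1862 genes with a mean CPM at least as high as that of the lowest of the 10, 25.5% and 25.9% were called. The counts of 0 of 10 and 1 of 10 stand beside those shares; at an unadjusted p under 0.05 there were 1 at ZT4-8 and 3 at ZT16-20, where 34.1% and 32.7% of all genes passed, and DESeq2 also called 0 and 1. The median log2 change of the 10 was -0.06 and -0.01, against -0.00 and -0.01 over all genes tested. Of all called genes 49.7% and 48.4% were higher, and with scaling to library totals alone 37.0% and 30.2% were. In whole lung, fewer cells of a type and less RNA per cell cannot be told apart.

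**Figure D1:**
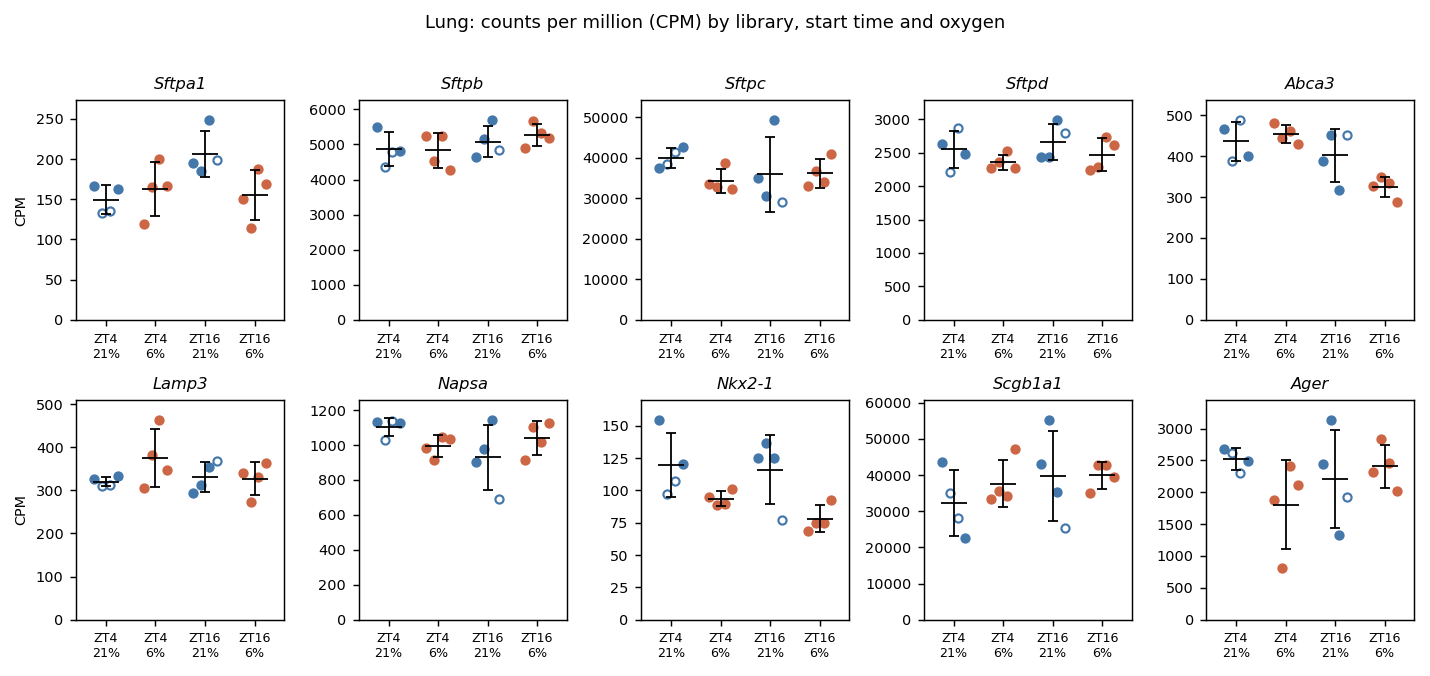
CPM (y axis) of each of the 10 genes in the 16 lung libraries, by start time and oxygen level. Points are libraries A to D from left to right in each group, blue for 21% and orange-red for 6% oxygen, open for the 3 air libraries that carry skeletal muscle markers, and bars are the group mean ± SD (n = 4). The mean of Nkx2-1 is lower at 6% oxygen at both times, the groups overlap, and the test called it at ZT16-20 alone. Its ZT16-20 air group spreads from 77.4 to 137 CPM.

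Nkx2-1, the transcription factor of the set, read 155, 97.6, 107 and 121 CPM in the air libraries A to D at ZT4-8 and 95.3, 88.8, 89.9 and 101 CPM at 6% oxygen. At ZT16-20 it read 125, 137, 125 and 77.4 CPM in air and 68.8, 75.2, 75.2 and 92.9 CPM at 6% oxygen. The groups overlapped at both times: at ZT16-20 the low air library is D, 1 of the 3 with muscle markers, and without it the other 3 air libraries lie above all 4 at 6% oxygen. The mean went from 116 ± 26.5 to 78.0 ± 10.4 CPM (SD, n = 4) at ZT16-20, and the gene fell by 0.57 on the log2 scale (SE 0.16, 95% confidence interval -0.89 to -0.25, edgeR adjusted p = 0.011), a fold of 0.674.

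At ZT4-8 the mean of Nkx2-1 was 120.0 ± 24.9 CPM in air and 93.7 ± 5.54 CPM at 6% oxygen, a log2 difference of -0.36 (interval -0.67 to -0.04, edgeR adjusted p = 0.099), which did not pass. The difference between the times was -0.21 (interval -0.66 to 0.24, adjusted p = 0.87), so the 2 times were not shown to differ. Over both times together, a contrast added after seeing the data in which 35.4% of all genes were called (17.2% higher and 18.2% lower), Nkx2-1 was the 1 called gene of the 10, with a log2 change of -0.46 (SE 0.11, adjusted p = 0.0019).

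The call at ZT16-20 was lost without air library B (-0.47, adjusted p = 0.054) and without 6% library A (-0.49, adjusted p = 0.051). It stood in the other 13 of 15 alternatives, with adjusted p from 2.8e-04 to 0.054 over all 15. Without the 3 air libraries that carry muscle markers the log2 change was -0.54 at ZT4-8 (edgeR adjusted p = 0.0080) and -0.71 at ZT16-20 (adjusted p = 2.8e-04). Nkx2-1 was then called at both times, with 15% and 19.2% of all genes called. That fit was not planned and keeps air libraries A and D alone at ZT4-8. The libraries left out held the lowest air values of Nkx2-1 at each time (97.6 and 107 CPM, then 77.4 CPM). Nkx2-1 at ZT4-8 was called in 3 of 15 alternatives, with log2 changes from -0.54 to -0.20 and adjusted p up to 0.40. Ordered by mean, the Nkx2-1 groups run from ZT4-8 air (120.0 CPM) over ZT16-20 air (116 CPM) and ZT4-8 at 6% (93.7 CPM) to ZT16-20 at 6% (78.0 CPM), and each neighbouring pair overlaps in single libraries.

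The collectins Sftpa1 and Sftpd, secreted surfactant proteins that bind microbes, were not called at either time. Sftpa1 read 195, 185, 248 and 198 CPM in air and 150.1, 115, 188 and 168 CPM at 6% oxygen at ZT16-20. Air library C is the highest of the 16, 6% library B the lowest, and the groups overlap through air library B and 6% library C alone. The log2 difference was -0.41 (interval -0.73 to -0.10, edgeR adjusted p = 0.058). At ZT4-8, where air libraries held 132 to 167 CPM and 6% libraries 119 to 201 CPM, the difference was 0.13 (interval -0.19 to 0.44). Sftpa1 at ZT16-20 passed in 3 of 15 alternatives, among them without 6% library C (-0.51, adjusted p = 0.029) and with scaling to library totals alone (-0.52, adjusted p = 0.017), a scaling that moved the median of all genes to -0.13. Without the 3 air libraries with muscle markers it gave -0.42 (adjusted p = 0.097). Sftpd lay between 2215 and 2983 CPM in all 16 libraries, and its log2 difference was -0.11 at both times (intervals -0.33 to 0.11).

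The hydrophobic surfactant proteins, which organise the lipid film, were not called at either time. Sftpb lay between 4285 and 5691 CPM over all libraries, with log2 differences of -0.01 (interval -0.23 to 0.20) at ZT4-8 and 0.05 (interval -0.16 to 0.27) at ZT16-20. Sftpc, whose transcript marks type 2 cells, took 3.06 to 5.04% of all lung counts. At ZT4-8 it read 37426, 38358, 41430.4 and 42508 CPM in air and 33508, 32726, 38669.8 and 32327 CPM at 6% oxygen. The 6% libraries A, B and D lie below all 4 air libraries and 6% library C lies among them. Its log2 difference there was -0.22 (interval -0.49 to 0.05, edgeR adjusted p = 0.26), and at ZT16-20 it was 0.01 (interval -0.26 to 0.28), where air library C alone reached 49220.3 CPM.

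Of the genes that serve the lamellar bodies, Abca3, the transporter that loads phospholipid into them, had the largest difference at ZT16-20. It read 387, 453, 317 and 451 CPM in air and 327, 348, 334 and 289 CPM at 6% oxygen. The 3 air libraries A, B and D lie above all 4 at 6%, and air library C lies among them. The log2 difference was -0.31 (interval -0.55 to -0.07, edgeR adjusted p = 0.061); it passed without air library C (-0.39, adjusted p = 0.015) and with library totals alone (-0.42, adjusted p = 0.010), and gave -0.23 (adjusted p = 0.17) without the 3 air libraries with muscle markers. At ZT4-8 Abca3 stood at 436 ± 48.5 CPM in air and 453 ± 21.9 CPM at 6% (SD, n = 4), a difference of 0.06 (interval -0.18 to 0.30).

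Lamp3, a membrane protein of lamellar bodies, and Napsa, the aspartic protease that cleaves surfactant protein precursors, were not called. For Lamp3 the log2 difference was 0.23 (interval -0.02 to 0.48) at ZT4-8, where the 4 air libraries sat between 309.6 and 333 CPM and the 6% libraries between 306 and 463 CPM, and -0.02 (interval -0.27 to 0.23) at ZT16-20. For Napsa it was -0.15 (interval -0.40 to 0.10) at ZT4-8 and 0.16 (interval -0.08 to 0.41) at ZT16-20, where air library D, with muscle markers, was the lowest of the 16 at 690.2 CPM. Without the 3 such libraries the value for Napsa at ZT16-20 was 0.06.

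Scgb1a1, the club cell secretory protein, varied mainly between libraries of 1 group. In air it read 43510.1, 35006, 28121.5 and 22469 CPM at ZT4-8 and 42945, 55249.6, 35373 and 25460.5 CPM at ZT16-20. At 6% oxygen it read 33377, 35667, 34105 and 47366 CPM and 34993, 42671, 42722 and 39370.0 CPM. At ZT16-20 all 4 values at 6% oxygen lie inside the air range, and at ZT4-8 library D alone lies above it. The coefficient of variation was 28.1% and 31.6% in air against 17.4% and 9.14% at 6% oxygen. The log2 differences were 0.22 (interval -0.23 to 0.68) and 0.01 (interval -0.45 to 0.46).

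Ager, the type 1 cell receptor, read 2684, 2623, 2296 and 2490.3 CPM in air and 1878, 806, 2409 and 2116 CPM at 6% oxygen at ZT4-8. Library B at 6% is the lowest of the 16, and the groups overlap through 6% library C and air library C. The log2 difference was -0.49 with an interval from -1.12 to 0.15 (edgeR adjusted p = 0.28), the widest of the set. At ZT16-20 air libraries ran from 1334 to 3134 CPM and 6% libraries from 2026 to 2839 CPM, a difference of 0.13 (interval -0.51 to 0.76). The other 9 intervals at ZT4-8 and all 10 at ZT16-20 lay within 1 log2 unit of 0.

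**Figure D2:**
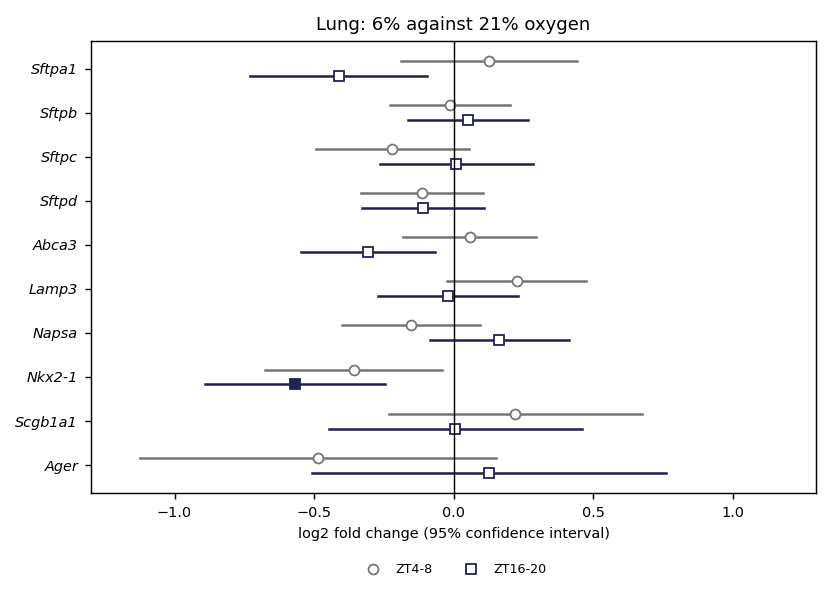
log2 fold change of each of the 10 genes, 6% against 21% oxygen, with its 95% confidence interval (x axis), in the light phase (circles) and dark phase (squares). A filled symbol passed the adjusted p threshold across all genes, which is Nkx2-1 at ZT16-20 alone, at -0.57.

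The oxygen response was then compared between the dark and the light phase. None of the 10 differed by the interaction test, at a background of 0.255% of genes called (0.14% higher and 0.115% lower), and DESeq2 also called 0 of 10. At an unadjusted p under 0.05, passed by 7.62% of all genes, there were 2, Sftpa1 with -0.54 (interval -0.99 to -0.09, adjusted p = 0.55) and Abca3 with -0.36 (interval -0.70 to -0.03, adjusted p = 0.61). Without the 3 air libraries with muscle markers they gave -0.41 and -0.31 (edgeR adjusted p = 0.89 and 0.87). Neither then had an unadjusted p under 0.05. The interval for Ager, -0.29 to 1.51, leaves differences of over 1 log2 unit possible.

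Time of day was compared within each oxygen level, which uses the same 4 groups of libraries as the oxygen comparisons. In air 0.979% of genes differed between ZT16-20 and ZT4-8 (0.346% higher and 0.634% lower) and at 6% oxygen 0.617% did (0.321% higher and 0.296% lower), and none of the 10 was called in either. At an unadjusted p under 0.05 there were 2 in air and 1 at 6% oxygen, where 11.8% and 9.39% of all genes passed. The libraries of the times did not overlap for 1 of the 10 in air (Sftpa1) and 1 at 6% oxygen (Abca3), beside 6.63% and 6.29% of all genes tested. DESeq2 called 0 in air and 1, Abca3, at 6% oxygen (adjusted p = 0.0091).

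Abca3 at 6% oxygen read 479.7, 445, 461 and 429 CPM at ZT4-8 and 327, 348, 334 and 289 CPM at ZT16-20. All 4 dark-phase libraries lie below all 4 light-phase libraries. The log2 difference was -0.48 (SE 0.12, interval -0.72 to -0.24, edgeR adjusted p = 0.053), and over 15 alternatives the adjusted p ran from 0.0091 to 0.23, under 0.05 in 4 of them (0.028 without the 3 air libraries). In air the difference was -0.12 (interval -0.36 to 0.12).

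Sftpa1 in air read 167, 132, 135 and 162 CPM at ZT4-8 and 195, 185, 248 and 198 CPM at ZT16-20, so all 4 dark-phase libraries lie above all 4 light-phase libraries. The log2 difference was 0.47 (SE 0.15, interval 0.15 to 0.79, edgeR adjusted p = 0.18), and 0.34 (adjusted p = 0.81) without the 3 air libraries with muscle markers. At 6% oxygen it was -0.07 (interval -0.39 to 0.25). For Napsa the air difference was -0.25 (interval -0.50 to -0.00, adjusted p = 0.42). Without the 3 air libraries it was -0.17 (edgeR adjusted p = 0.86). Neither Sftpa1 nor Napsa then had an unadjusted p under 0.05 in air. The 4 comparisons by oxygen and time share their groups, so the high Sftpa1 in dark-phase air enters both its oxygen and its time value.

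**Figure D3:**
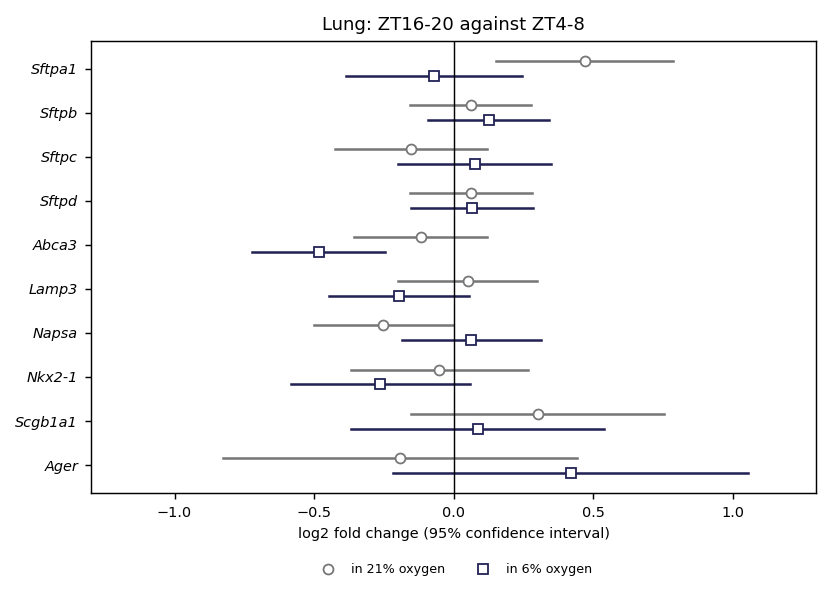
log2 fold change of each of the 10 genes, ZT16-20 against ZT4-8, with its 95% confidence interval (x axis), in 21% oxygen (circles) and 6% oxygen (squares). No symbol is filled, since none passed across all genes; Sftpa1 in air lies at 0.47 and Abca3 at 6% oxygen at -0.48.

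Other genes of the same pathways were read from lists chosen for the tissue. Uncalled genes are named in the next paragraphs as familiar markers, chosen after their values were seen. The share of all genes whose oxygen groups do not overlap was not counted, so a lack of overlap is given as description. Among 22 tested transcription factors of lung epithelium, 4 rose and 2 fell at ZT4-8, and 5 rose and 3 fell at ZT16-20. Foxa2, a forkhead factor of endoderm that also acts on surfactant genes, read 56.1, 62.8, 67.3 and 65.8 CPM in air and 25.6, 26.4, 32.2 and 22.4 CPM at 6% oxygen at ZT4-8. At ZT16-20 it read 62.2, 66.8, 55.3 and 65.1 CPM in air and 35.5, 23.8, 30.2 and 27.7 CPM at 6% oxygen. The groups do not overlap at either time, and Foxa2 fell by 1.24 (SE 0.14, edgeR adjusted p = 3.2e-07) and by 1.08 (SE 0.14, adjusted p = 3.2e-06) on the log2 scale. Its relative Foxa1 was not called (0.04 and -0.09), nor was Gata6 (0.15 and 0.09).

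Sox2, a factor of the airway lineage named after its values were seen, fell at both times (edgeR adjusted p = 4.6e-05 and 3.8e-04). Its mean went from 23.8 ± 3.37 to 9.64 ± 1.75 CPM at ZT4-8 and from 21.4 ± 4.54 to 9.58 ± 2.57 CPM at ZT16-20, with no overlap. Cebpd, a C/EBP factor induced by glucocorticoids, rose from 3.89 ± 0.687 to 47.8 ± 6.72 CPM at ZT4-8 (log2 change 3.62) and from 12.98 ± 5.12 to 40.5 ± 6.87 CPM at ZT16-20 (log2 change 1.68). Its log2 change differed between the times by -1.95 (edgeR adjusted p = 0.0056). Without the 3 air libraries with muscle markers that value was -1.73 (adjusted p = 0.18). Cebpb rose at ZT4-8 (0.84, adjusted p = 2.9e-06) and gave 0.27 at ZT16-20 (adjusted p = 0.075), and Foxp1 rose at both times (0.44 and 0.79). Glucocorticoid-induced genes, a list that holds Cebpd, were higher for 10 and 12 of 15 tested genes and lower for 0. The part of glucocorticoids in these values was not tested.

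**Figure D4:**
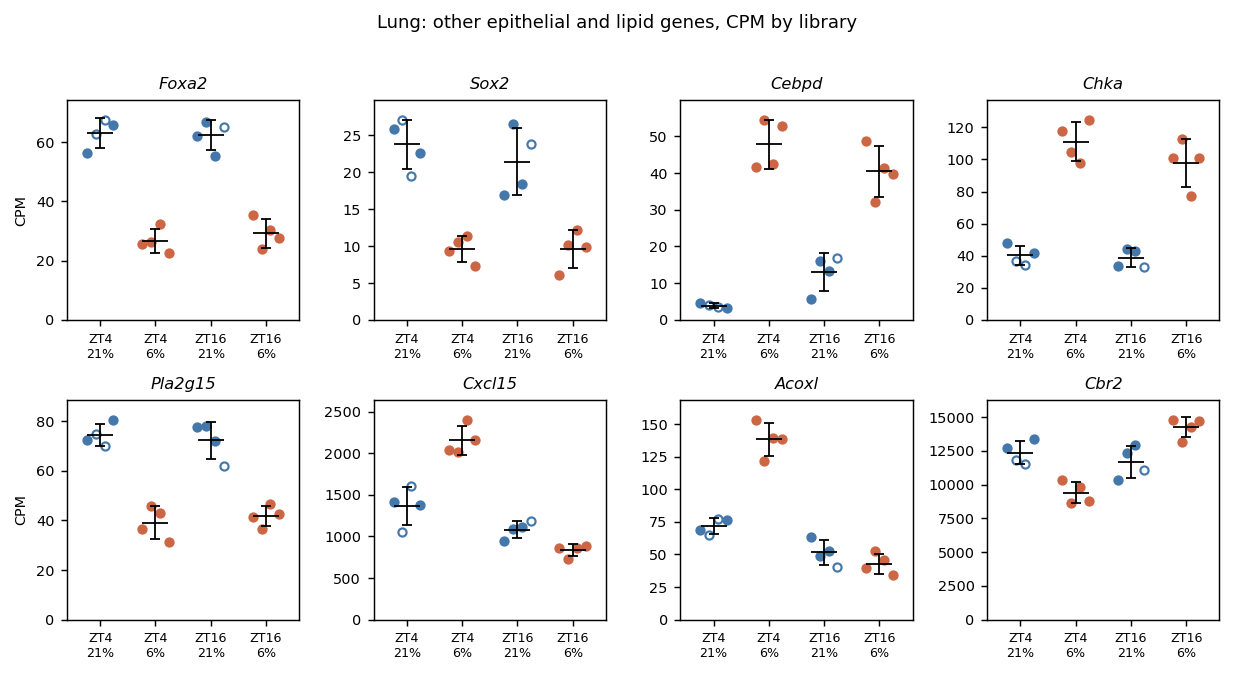
CPM (y axis) of 8 other genes in the 16 lung libraries, drawn as in the plot of the 10 genes: points are libraries, open points the 3 air libraries with muscle markers, bars the mean ± SD (n = 4). Foxa2, Sox2 and Pla2g15 are lower and Cebpd and Chka higher at 6% oxygen with no overlap at either time. Cebpd, Cxcl15, Acoxl and Cbr2 differ in their response between the times by the interaction test. For Cbr2 that passed in 9 of 22 alternatives, and for Cebpd it was lost without the 3 air libraries.

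Surfactant lipid genes were called for 3 higher and 1 lower of 23 at ZT4-8 and 3 higher and 3 lower at ZT16-20. Chka, the choline kinase that starts phosphatidylcholine synthesis, rose from 40.1 ± 5.99 to 111 ± 12.1 CPM at ZT4-8 and from 38.6 ± 5.95 to 97.9 ± 14.8 CPM at ZT16-20 (log2 changes 1.47 and 1.35, SE 0.14 each, edgeR adjusted p = 2.9e-08 and 1.7e-07). Pla2g15, the lysosomal phospholipase that degrades phospholipid, fell by 0.93 and 0.79 (adjusted p = 8.1e-06 and 9.0e-05), with no overlap of groups. Srebf1, a factor of lipid synthesis, rose at ZT16-20 (0.72) and gave 0.18 at ZT4-8, and the desaturase Fads1 rose at both times (0.33 and 0.55). Of 24 lamellar body and lysosome genes 0 rose and 1 fell at ZT4-8, and 2 rose and 2 fell at ZT16-20. The protease Ctsh (0.52) rose and the phosphate transporter Slc34a2 fell by 0.41 at ZT16-20. The lists share genes, so their counts are not independent. Pla2g15 is the 1 gene that fell at ZT4-8 in both the lipid and the lamellar body list. Ctsh and Slc34a2 are also in the list of other type 2 cell genes.

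Other type 2 cell genes were higher for 4 and lower for 0 of 24 at ZT4-8, and higher for 2 and lower for 4 at ZT16-20. Acoxl, a relative of acyl-CoA oxidases, read 68.9, 64.8, 77.5 and 76.5 CPM in air and 153, 122, 140 and 139 CPM at 6% oxygen at ZT4-8. At ZT16-20 it read 63.5, 49.0, 52.9 and 40.7 CPM in air and 39.7, 52.4, 45.5 and 34.3 CPM at 6% oxygen, and those groups overlap. It rose at ZT4-8 (0.94, edgeR adjusted p = 1.4e-05) and gave -0.27 at ZT16-20 (adjusted p = 0.20), and the difference between the times was -1.21 (SE 0.20, adjusted p = 0.0025).

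Cxcl15, a chemokine of lung epithelium named after its values were seen, went from 1364 ± 229 to 2153 ± 173 CPM at ZT4-8 and from 1083 ± 101 to 835 ± 68.6 CPM at ZT16-20. It rose by 0.66 and fell by 0.37 on the log2 scale (edgeR adjusted p = 2.0e-04 and 0.024), and the difference between the times was -1.03 (SE 0.17, adjusted p = 0.0022). The fall at ZT16-20 passed in 10 of 15 alternatives and was lost without air library B, C or D or without 6% library A or B, with adjusted p up to 0.090. Acoxl and Cxcl15 were the 2 of 24 genes called for the difference between times. Ppp1r14c and Bex2 rose at ZT4-8 (0.90 and 0.92), and Fabp5, a fatty acid binding protein, rose at ZT16-20 (1.55).

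Beside Scgb1a1, other club and secretory genes were higher for 2 and lower for 2 of 24 at ZT4-8, and higher for 2 and lower for 1 at ZT16-20. Cldn10 had the smallest p of this list at ZT4-8 and Por at ZT16-20, and their values are not given here. Cbr2, a carbonyl reductase of club cells, went from 12367 ± 839 to 9394 ± 791 CPM at ZT4-8 and from 11694 ± 1190 to 14247 ± 752 CPM at ZT16-20, with no overlap of groups. It fell by 0.40 (edgeR adjusted p = 0.0060) and rose by 0.28 (adjusted p = 0.047), and the difference between the times was 0.68 (SE 0.14, adjusted p = 0.033). The rise at ZT16-20 passed in 6 of 15 alternatives (adjusted p 0.011 to 0.23) and the difference between times in 9 of 22 (adjusted p up to 0.12), and in the remaining alternatives the call was lost. Without the 3 air libraries with muscle markers the rise at ZT16-20 had an edgeR adjusted p of 0.0505, just over the threshold, so that call was lost. The club list then had 1 higher and 1 lower of 25 at ZT4-8, and 1 higher and 0 lower at ZT16-20. Scgb3a2 and Cyp2f2, also club cell genes, were not called (0.03 and 0.10 for Scgb3a2, 0.09 and -0.08 for Cyp2f2).

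Beside Ager, other type 1 cell genes were higher for 5 and lower for 1 of 22 at each time. Gprc5a had the smallest p of this list at ZT4-8 and Timp3 at ZT16-20. Aqp5, the water channel, rose at both times (0.43 and 0.72, edgeR adjusted p = 0.036 and 0.0010), with no overlap of groups. At ZT4-8 the groups barely separated, with air library C at 241.6 CPM and 6% library B at 242.2 CPM. Its rise at ZT4-8 passed in 8 of 15 alternatives (adjusted p up to 0.12). Timp3 also rose at both times (0.44 and 0.86), and the sodium channel subunit Scnn1g fell by 0.48 at ZT16-20. Hopx, a type 1 factor, was not called (-0.06 and -0.08). Without the 3 air libraries with muscle markers the type 1 list had 2 higher and 1 lower at ZT4-8 and 5 higher and 1 lower at ZT16-20. In the same fit the type 2 list had 5 higher and 0 lower, then 2 higher and 5 lower, and the transcription factors had 4 higher and 2 lower, then 3 higher and 3 lower. The surfactant lipid list then had 2 higher and 1 lower at ZT4-8 and 3 higher and 1 lower at ZT16-20.

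**Figure D5:**
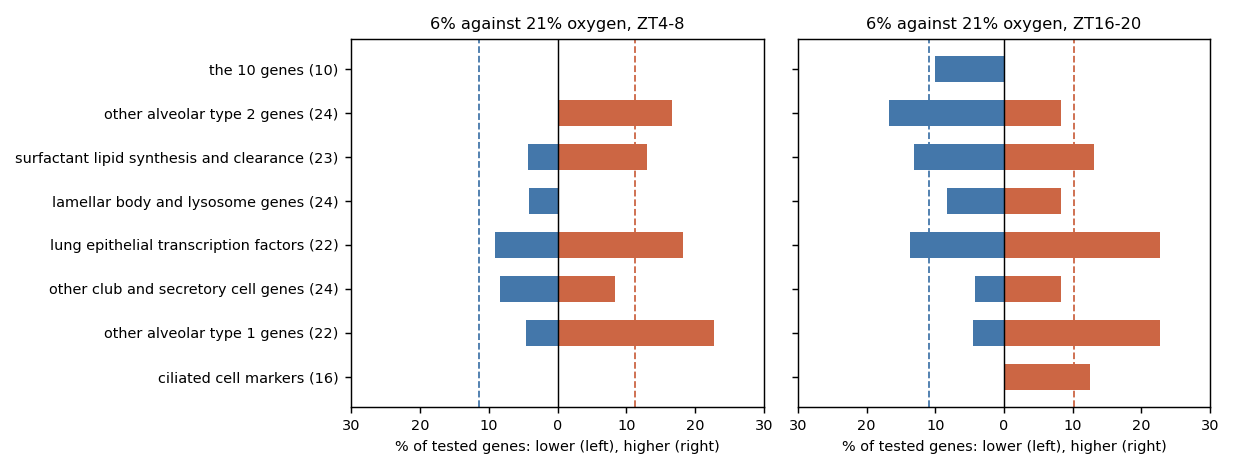
Share of tested genes called higher (right, orange-red) and lower (left, blue) at 6% oxygen in each list, with the number tested in brackets, at ZT4-8 and ZT16-20. Dashed lines mark the shares over all 12150 genes, 11.2% and 11.4% at ZT4-8 and 10.2% and 10.9% at ZT16-20. Lists of 10 to 24 genes make each share coarse, and some genes are shared between lists.

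Markers of other cells in the lung were read for the same comparisons. Endothelial markers were higher for 5 and lower for 1 of 13 at ZT4-8 and higher for 3 and lower for 1 at ZT16-20. Cldn5, the marker with the smallest p at each time, had log2 changes of 1.58 and 1.35. The median log2 change of the 13 markers was 0.37 and 0.09. Ciliated cell markers were called for 0 of 16 at ZT4-8 and 2 higher at ZT16-20. Neutrophil markers were higher for 2 and 6 of 10, and for 2 and 4 without the 3 air libraries with muscle markers. The summed endothelial markers ran from 3695 to 5178 CPM in the air libraries and from 4698 to 7306 CPM at 6% oxygen. Their part in the values of the 10 genes was not tested. Hypoxia-inducible factor targets were higher for 13 of 22 at ZT4-8 and for 15 at ZT16-20, with 0 and 2 lower. Of all genes tested, 11.2% and 10.2% were higher and 11.4% and 10.9% lower.

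Over the 16 libraries, with group means subtracted from log2 CPM, Sftpa1 and Lamp3 varied together (Pearson r = 0.80), as did Sftpc and Napsa (0.76) and Napsa and Nkx2-1 (0.74), while Sftpc and Abca3 varied in opposite directions (-0.71). These values describe the same 16 libraries, which differ in depth and share 1 scaling. After subtracting group means, the genes most like Nkx2-1 were Hnrnpl (0.91), Gne (0.91) and Emid1 (0.89). Those most like Sftpc were Pllp (0.93), Tmem88 (0.90) and Marco (0.88), those most like Napsa were Cdpf1, Krt8 and Ly6c1 (0.91 each), and those most like Abca3 were Ube2o (0.90), Rpp21 (0.86) and Bpgm (0.86). Without subtracting group means, the gene most like Nkx2-1 was Tor4a (0.91) and the one most like Sftpa1 was Yipf4 (0.87). With so many genes and 16 libraries, values of this size name the nearest genes and test nothing.

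Outside the lung, 2 of the 10 genes were well counted in every kidney library. Napsa, which kidney tubules also make, lay between 4213 and 7137 CPM and Abca3 between 219.1 and 499 CPM in the 16 kidney libraries. Neither was called for oxygen: the log2 differences were -0.18 (interval -0.48 to 0.12) and 0.13 (interval -0.17 to 0.43) for Napsa at ZT4-8 and ZT16-20, and 0.13 (interval -0.18 to 0.44) and 0.10 (interval -0.21 to 0.41) for Abca3, where 5.28% and 6.9% of 10878 kidney genes were called by edgeR. In liver libraries of the light-dark cycle, Abca3 lay between 32.5 and 47.8 CPM and Napsa between 1.01 and 18.2 CPM.

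Sftpc and Scgb1a1, the genes with the largest shares of lung counts given above, had few counts in kidney and liver. In kidney, Sftpc had 1 to 59 counts (0.284 to 18.2 CPM), with the most in ZT16-20 6% D (18.2 CPM), ZT16-20 21% C (15.1 CPM) and ZT4-8 6% B (13.8 CPM). Scgb1a1 was highest in ZT16-20 6% D (20.8 CPM) and ZT16-20 21% C (17.9 CPM), and Sftpb and Sftpd reached their kidney maxima of 6.56 and 4.37 CPM in ZT16-20 6% D too. In liver the highest Sftpc values were 7.06 CPM (ZT4-8 6% B) and 5.07 CPM (ZT16-20 6% D), and Scgb1a1 had its highest, 5.87 and 5.04 CPM, in the same 2 libraries. Where these few counts come from was not tested. Nkx2-1 and Sftpa1 were rows of the lung table only.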

How the data were processed

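RNA of 16 lungs was sequenced, and kidney and liver tables were used for levels of the same genes. The values are raw counts per gene as deposited by the authors. Per the submitters' processing notes, the tools were STAR and HTSeq with cutadapt and bcl2fastq, on build mm10. Versions, annotation and strand were not given in the sources used here. Per the labels' protocols, cDNA was evened by actin PCR, pooled and amplified by in vitro transcription, so counts are not independent molecules. The smallest highest count of any listed lung gene was 6.

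The test was edgeR (4.0.16, R 4.3.3): filterByExpr (minimum count 10, minimum total 15), TMM scaling, a quasi-likelihood fit of all 4 groups with robust dispersion, and Benjamini-Hochberg adjustment over all genes tested, called at 0.05. The script was tested on simulated data. Intervals are 95%. DESeq2 1.42.0, other scaling, no filter, a replicate block, fewer libraries and leaving out each library were alternatives. The design text says that replicates are separate mice. The 10 genes and the lists were chosen with earlier results of these data known. Named were the 10 genes in each comparison and some of the up to 4 genes per list with the smallest p over both oxygen comparisons. Other list genes were named after their values were seen. For some of the 10, the genes of at least 10 CPM most correlated with them were named, out of 3 taken for each (pseudocount 1). Sequences come from RefSeq.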

Additional observations from a re-analysis of the deposited data

Results flagged for a closer look

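Of 84 groups of 4 libraries examined for 1 library far from the rest (its gap over the range above Dixon's 95% critical value), 3 held one, and chance alone gives about 1 in 20. Napsa was low in lung air library B at ZT4-8 (1029.1 CPM, the other 3 between 1124 and 1137), 1 of the libraries with muscle markers. Scgb1a1 was high in lung 6% library D at ZT4-8 (47366 CPM, the others 33377 to 35667). Abca3 was low in kidney air library C at ZT16-20 (219.1 CPM, the others 405 to 429).

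The oxygen response differed between the times by the interaction test for 4 named genes: Cebpd (-1.95 on the log2 scale), Acoxl (-1.21), Cxcl15 (-1.03) and Cbr2 (0.68). Without the 3 air libraries that carry muscle markers, Cebpd gave -1.73 with an edgeR adjusted p of 0.18, while Acoxl, Cxcl15 and Cbr2 kept adjusted p of 0.0050, 0.0046 and 0.031.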

How the results depend on the processing

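Over the 10 lung genes and 6 comparisons, with Napsa and Abca3 in kidney, 1076 of 1092 alternative values stayed on the side of the threshold reported, 2 lost the call (Nkx2-1 at ZT16-20, given above), 14 gained one and 0 changed sign while called. With the replicate block Sftpa1 at ZT16-20 was called (-0.42, edgeR adjusted p = 0.040). With group means subtracted, same-letter libraries of different groups correlated at -0.27 to 0.12. Whether the letters mark a shared batch was not tested. The block gave 2523 calls at ZT4-8 and 2367 at ZT16-20, against 2743 and 2568. Without the filter, and with RLE scaling, no call of the 10 changed. The other gains were of Abca3, Nkx2-1, Sftpa1 and Sftpd under library totals alone, fewer libraries or DESeq2. Library totals alone moved the share of calls that were higher from 49.7 to 37.0% at ZT4-8 and from 48.4 to 30.2% at ZT16-20, and from 48.6 to 32.9% over both times.

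Counts of all genes called moved by over 1.5 times as follows. The difference between times had 31 calls, 66 by DESeq2, 19 without the 3 air libraries and 19 to 38 leaving out 1 library (19 without ZT4-8 6% D). Time in air had 119, 210 by DESeq2, 77 with only the libraries compared, 29 without the 3 and 75 to 167 leaving out 1 (75 without ZT4-8 air B, 78 without ZT4-8 air C). Time at 6% oxygen had 75, 114 by DESeq2 and 35 to 51 leaving out 1 (35, 36 and 43 without ZT4-8 6% D, C and B, and 36, 44 and 38 without ZT16-20 6% A, B and D). Kidney at ZT4-8 had 574, 264 with only the libraries compared and 342 to 1017 leaving out 1 (342 without ZT4-8 air B, 1017 without ZT4-8 air C). The causes were not tested. With 4 libraries a group, changes under about the interval widths above could be missed.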
